A study of Mus musculus with 2 samples.

Results

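The genes described here encode the killing machinery and the main effector proteins of cytotoxic lymphocytes: Gzma, Gzmb, Gzmm, Prf1, Nkg7, Ccl5, Ctsw, Ifng and Fasl. They were taken by symbol, and all 9 were listed in both tables, out of 30457 genes listed in either one (29292 for TAS-Seq and 25459 for BD WTA). They were measured by single-cell RNA sequencing of spleen cells from female C57BL/6J mice, 10 weeks old when injected, which carried subcutaneous Lewis lung carcinoma, a transplantable tumour line, and received an anti-CD4 antibody at 200 μg per shot on days 5 and 9. Spleens were taken on day 12. A frozen pool made from 3 spleens was thawed, and 2000 of its cells went onto a BD Rhapsody cartridge, a nanowell and barcoded bead system. The beads were split between TAS-Seq, which amplifies cDNA from a terminator-limited cytidine tail, and the BD official WTA workflow (BD WTA), which extends random primers. With 1 library per method there is no replicate and hence no test, and all values are those of single libraries. Both libraries share the tumour and the antibody, and no sample without them was analysed here.

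Cytotoxic lymphocytes, mainly natural killer (NK) cells and CD8 T cells, carry granules that are released onto a target cell. Perforin opens the way into the target, granzymes cleave proteins inside it, and Fas ligand and interferon gamma act from the cell surface and as a secreted cytokine. In the resting spleen NK cells carry RNA of granule genes, naive T cells carry little of it, and memory CD8 T cells lie between. RNA need not mean stored protein, and protein was not measured here.

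The tables held 736 and 716 cell barcodes, TAS-Seq first here and below, and 732 and 708 cells were kept, with medians of 46557 and 38426 reads per cell. No barcode was found in both tables. Each cell was placed in a class by the summed level of lineage markers, none of which is a gene of the set, and the class names below mean these marker gates. The NK class held 20 cells (2.73%, 95% exact binomial interval 1.68% to 4.19%) and 25 cells (3.53%, 2.30% to 5.17%). The other classes were CD8 T cells (124 and 114), CD4 T cells (66 and 73), double-negative T cells (77 and 89), B cells (406 and 357) and remaining cells (26 and 36). Double-negative T cells had less than 100 CPM of RNA of each coreceptor, so they can hold a few coreceptor reads or have missed ones. Left out were 7 and 3 T cells with both coreceptors and 6 and 11 cells with markers of more than 1 lineage. In NK cells the median sum of 8 NK markers, among them Ncr1 and Klrb1c, was 8460 CPM (reads of a gene scaled to 1000000 reads of the cell) and 7330 CPM, and the median sum of 6 T-cell markers was 853.6 CPM and 513.2 CPM. Values are reads without molecular identifiers, so the Poisson and binomial intervals below are 95% exact intervals for counting error only, and amplification of single molecules can make them too narrow. Pooled CPM is the reads of a gene summed over the cells of a class and scaled in the same way.

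All 9 genes are annotated as protein-coding on GRCm38, and reads were counted on their transcripts, so that the values stand for exonic sequence. The granzyme genes lie apart, with Gzma (ENSMUSG00000023132.8) at chr13:113093825-113100981 on the minus strand, Gzmb (ENSMUSG00000015437.5) at chr14:56258838-56262260 on the minus strand and Gzmm (ENSMUSG00000054206.2) at chr10:79689020-79695261 on the plus strand. Prf1 (ENSMUSG00000037202.6, chr10:61297833-61304680, plus) and Ifng (ENSMUSG00000055170.4, chr10:118441046-118445892, plus) share a chromosome with Gzmm. Nkg7 (ENSMUSG00000004612.9) lies at chr7:43437073-43438249 on the plus strand, and Ccl5 (ENSMUSG00000035042.2) at chr11:83525778-83530518 on the minus strand. Ctsw (ENSMUSG00000024910.5) lies at chr19:5465043-5468507 and Fasl (ENSMUSG00000000817.10) at chr1:161780689-161788495, both on the minus strand. Of the 31-base words of the Ifng transcripts, 22.6% also occur in transcripts of Gm49751, so its count is less certain than the others. Gzmb shares 1.35% of its words with Gzmc, which had 0 reads in the NK and B cells of both libraries. In TAS-Seq Gzmc had 1.47 CPM in CD8 T and 2.31 CPM in CD4 T cells, from 1 cell each. The other 7 genes of the set share at most 0.539% with any gene.

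The 250 bases upstream of the RefSeq start are shown for Gzma, Gzmb and Prf1, the pore former and the granzymes for which TAS-Seq NK cells held the largest shares of all reads, chosen after these values were seen. They were taken from RefSeq on GRCm38.p6, for chr13:113100982-113101231 (minus), chr14:56262335-56262584 (minus) and chr10:61297586-61297835 (plus), and read in the direction of transcription. Capitals mark matches, on either strand, to 4 short motifs of factor families of cytotoxic lymphocytes: T-box TCACAC, RUNX TGTGGT, AP-1 TGANTCA and STAT TTCNNNGAA.
Gzma: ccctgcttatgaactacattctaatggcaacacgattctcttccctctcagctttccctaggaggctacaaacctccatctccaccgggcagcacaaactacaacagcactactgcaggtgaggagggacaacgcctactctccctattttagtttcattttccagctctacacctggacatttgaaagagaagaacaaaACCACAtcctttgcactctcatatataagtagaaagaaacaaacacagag
Gzmb: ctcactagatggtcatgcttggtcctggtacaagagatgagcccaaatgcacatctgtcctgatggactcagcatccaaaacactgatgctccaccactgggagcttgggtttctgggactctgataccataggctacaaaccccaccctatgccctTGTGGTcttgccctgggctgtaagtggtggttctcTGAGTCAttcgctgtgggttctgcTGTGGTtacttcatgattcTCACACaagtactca
Prf1: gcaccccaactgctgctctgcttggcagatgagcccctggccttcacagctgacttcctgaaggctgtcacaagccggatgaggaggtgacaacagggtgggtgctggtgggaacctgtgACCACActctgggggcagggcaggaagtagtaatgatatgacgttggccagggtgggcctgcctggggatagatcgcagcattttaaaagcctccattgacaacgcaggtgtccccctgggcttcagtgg
The Gzmb window held a T-box match starting 15 bases before the start, RUNX matches at 34 and 93 bases and an AP-1 match at 58 bases, none of them overlapping. The Gzma and Prf1 windows each held 1 RUNX match, at 50 and 130 bases, in the reverse orientation. RUNX letters occurred for 5 of the 7 genes of the set with an entry (Gzma, Gzmb, Gzmm, Prf1 and Nkg7), T-box letters for Gzmb, Gzmm and Nkg7, STAT letters for Gzmm, Nkg7 and Ifng, and AP-1 letters for Gzmb. Of 32851 RefSeq promoter windows of the same length, 14% held the RUNX letters, 12.3% the T-box letters, 7.02% the STAT letters and 6.75% the AP-1 letters. A match describes the letters and is not a binding site.

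The set as a whole was highest in NK cells in both libraries. Its summed level in NK cells was 23000 pooled CPM (Poisson interval 22722 to 23281) in TAS-Seq and 21284 CPM (20999 to 21572) in BD WTA. In CD8 T cells it was 1723 CPM (1695 to 1752) and 1417 CPM (1385 to 1448), in double-negative T cells 937.4 CPM and 725.8 CPM, and in CD4 T cells 316.7 CPM and 548.2 CPM. B cells, which should lack these genes, had 43.1 CPM (40.2 to 46.0) and 5.99 CPM (4.83 to 7.35). NK cells were 2.73% and 3.53% of the cells and held 57% and 60.9% of all reads of the set.

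The pooled level of all 9 genes was at least 4-fold higher in NK cells than in B cells in both libraries. B-cell reads under 3 were raised to 3 for this. Among genes with a mean of at least 10 CPM over both classes and reads in at least 10 cells, 9.00% of 9184 passed this fold in TAS-Seq and 10.3% of 8614 in BD WTA. The same 8 genes of the set, all but Gzmm, passed that filter in each library, and all 8 passed the fold. In BD WTA the genes had at most 3.45 CPM in B cells, so passing the filter already implied the fold. The same held in TAS-Seq for Gzmb, Prf1, Ctsw, Ifng and Fasl, at 3.33 CPM or less. Their count therefore cannot be weighed against these shares. Gzmm was read in 1 NK cell of each library. Its TAS-Seq ratio of 6.43 had an interval of 1.83 to 20.2 that includes 4, and in BD WTA 25 NK reads stood against 0 B-cell reads. The median log2 ratio over the 9 genes in TAS-Seq was 8.87, against 0.00 over all genes tested. In BD WTA 7 of the 9 genes had fewer than 3 B-cell reads, and with these set at 3 reads the median was 11.39, a value that the floor itself sets, against 0.06. Among the 8 genes the TAS-Seq folds ran from 380.8 for Ctsw to 853.0 for Ccl5. Most B-cell reads of Gzma and Gzmb came from 1 TAS-Seq cell, described below. Without it the B-cell levels fell from 20.2 to 3.64 CPM for Gzma and from 1.24 to 0.249 CPM for Gzmb. The folds of these 2 genes would then lie above the range given.

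**Figure D1:**
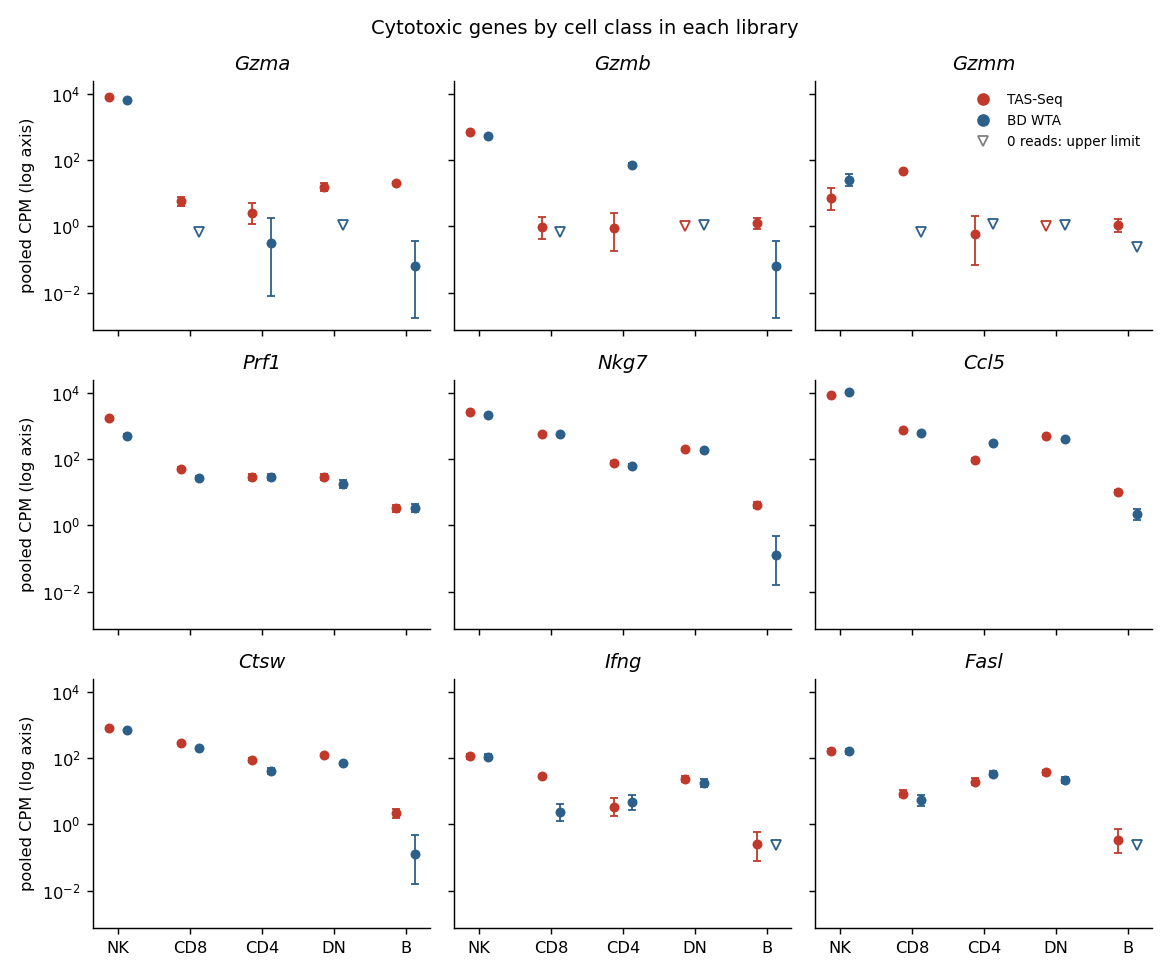
Pooled CPM (log axis) of each gene in NK, CD8 T, CD4 T, double-negative T (DN) and B cells, with TAS-Seq in red, BD WTA in blue and bars for the 95% Poisson interval; open triangles mark classes with 0 reads, at the upper limit of the interval. Gzma stood at 8051 and 6301 CPM in NK cells and at or below 20.2 CPM in every other class shown, while Nkg7, Ccl5 and Ctsw stepped down from NK through CD8 T, double-negative T and CD4 T to B cells.

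Granzyme A, a tryptase of the granules, was the clearest of the NK-cell genes. Single TAS-Seq NK cells ranged from 0 to 21152 CPM of Gzma with a median of 9804 CPM, and BD WTA NK cells from 0 to 40335 CPM with a median of 6536 CPM. The pooled level was 8051 CPM (7887 to 8218) and 6301 CPM (6147 to 6459). It was found with at least 5 reads in 17 of 20 and 23 of 25 NK cells, so that 3 and 2 NK cells stood apart from the rest at 0 CPM. NK cells held 94.6% and 93.1% of all Gzma reads. In CD8 T cells it had 5.62 CPM (4.12 to 7.5) in TAS-Seq and 0 reads in BD WTA, which allows up to 0.543 CPM at 3 reads. The TAS-Seq B class stood at 20.2 CPM of Gzma, above its CD8 T cells, and 82.0% of those reads came from 1 cell.

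Granzyme B, which cuts after aspartate and sets off cell death, was present in fewer NK cells. Single NK cells ranged from 0 to 6216 CPM of Gzmb with a median of 559.4 CPM in TAS-Seq, and from 0 to 3950 CPM with a median of 206.6 CPM in BD WTA. The pooled level was 722.2 CPM (673.7 to 773.4) and 525.7 CPM (481.7 to 572.6). With at least 5 reads of each gene, 12 TAS-Seq and 14 BD WTA NK cells carried both Gzma and Gzmb, 5 and 9 carried Gzma alone, 1 and 0 carried Gzmb alone, and 2 and 2 carried neither. Most cells with Gzmb thus also carried Gzma, but so did 85% and 92% of all NK cells. A link between the 2 genes was not tested. Outside NK cells Gzmb had 8 reads in TAS-Seq CD8 T cells and 0 reads in BD WTA CD8 T cells. The 69.8 CPM of BD WTA CD4 T cells were 221 reads of 1 cell out of 73, which had 3033 CPM.

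Granzyme M, a protease that prefers methionine at the cut site, followed another pattern. In NK cells it was found in 1 of 20 and 1 of 25 cells, with 8 and 25 reads (7.04 and 25 pooled CPM). In TAS-Seq the class with the highest level was CD8 T cells, at 45.2 CPM (40.7 to 50.1) from 13 of 124 cells, the highest single cell at 608.4 CPM. None of the 114 BD WTA CD8 T cells had a Gzmm read, which allows a share of up to 2.63%, and the TAS-Seq level was at least 83.3-fold higher than 3 BD WTA reads. The BD WTA reads of Gzmm came from a single NK cell, so the classes cannot be ordered for this gene in that library.

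Perforin, encoded by Prf1, forms the pores through which granzymes pass. TAS-Seq NK cells ranged from 0 to 8577 CPM with a median of 1280 CPM, and BD WTA NK cells from 0 to 2216 CPM with a median of 211.7 CPM. The pooled level was 1706 CPM (1631 to 1783) and 506.7 CPM (463.6 to 552.8). At least 5 reads were found in 18 of 20 and 14 of 25 NK cells, and 16 and 12 cells had at least 5 reads of both Gzma and Prf1. T cells carried low levels of Prf1 in each class, between 28.9 and 51.6 CPM in TAS-Seq and between 17.9 and 29.4 CPM in BD WTA, with overlapping intervals for CD4 T and double-negative T cells in TAS-Seq and for each neighbouring pair in BD WTA. B cells had 3.33 and 3.45 CPM.

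Nkg7, a membrane protein of the granules that takes part in their release, was shared between NK cells and CD8 T cells. NK cells ranged from 243.7 to 6788 CPM with a median of 2811 CPM in TAS-Seq, and from 0 to 6564 CPM with a median of 2117 CPM in BD WTA. CD8 T cells ranged from 0 to 2897 CPM with a median of 452.1 CPM, and from 0 to 2583 CPM with a median of 279.8 CPM. Their pooled levels were close, at 554.9 CPM (538.9 to 571.3) and 564.1 CPM (544.5 to 584.3). At 20000 reads per cell, 63.9% and 53.6% of CD8 T cells had at least 5 reads of Nkg7, against 6.15% and 8.96% of CD4 T cells and 0.254% and 0% of B cells, of which the latter allows up to 0.917%. Since CD8 T cells outnumber NK cells, NK cells held 35.3% and 33.5% of the Nkg7 reads.

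Ctsw, cathepsin W, a cysteine protease of NK cells and cytotoxic T cells, had the same order. NK cells ranged from 0 to 5026 CPM with a median of 592.9 CPM, and from 0 to 2527 CPM with a median of 487.6 CPM. Pooled levels fell from 834.0 and 718.6 CPM in NK cells to 288.9 and 203.7 CPM in CD8 T cells, 124.1 and 69.5 CPM in double-negative T cells, 87.8 and 41.1 CPM in CD4 T cells and 2.19 and 0.130 CPM in B cells. The intervals of neighbouring classes did not overlap for Ctsw, Nkg7 or Ccl5 in either library, and these 3 genes had the same order of classes in both.

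Ccl5, a chemokine whose RNA memory CD8 T cells store, was the gene found in every NK cell. Single NK cells ranged from 1161 to 26044 CPM with a median of 7184 CPM in TAS-Seq, and from 2376 to 27716 CPM with a median of 12096 CPM in BD WTA. The pooled level in NK cells was 8704 CPM (8533 to 8877) and 10811 CPM (10608 to 11016). CD8 T cells had 739.6 CPM (721.1 to 758.5) and 613.9 CPM (593.4 to 634.9), yet the median CD8 T cell of both libraries had 0 reads. The reads of CD8 T cells thus came from a minority, which reached 8023 and 9768 CPM.

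Ifng, the cytokine interferon gamma, and Fasl, the ligand of the death receptor Fas, were scattered over few cells. In NK cells Ifng had 115.2 CPM (96.4 to 136.8) and 111.9 CPM (92.2 to 134.7), from 7 of 20 and 7 of 25 cells, with highest cells of 754.5 and 1207 CPM. Fasl had 162.7 CPM (140.1 to 188.0) and 160.9 CPM (137.0 to 187.8), from 10 and 8 cells, with highest cells of 786.8 and 877.9 CPM. The NK levels of both genes overlapped between the libraries. Fasl was lower in CD8 T cells than in CD4 T cells, at 8.56 against 19.6 CPM and at 5.43 against 34.1 CPM, but these values rest on 3 against 2 cells in TAS-Seq and 1 against 3 cells in BD WTA.

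**Figure D2:**
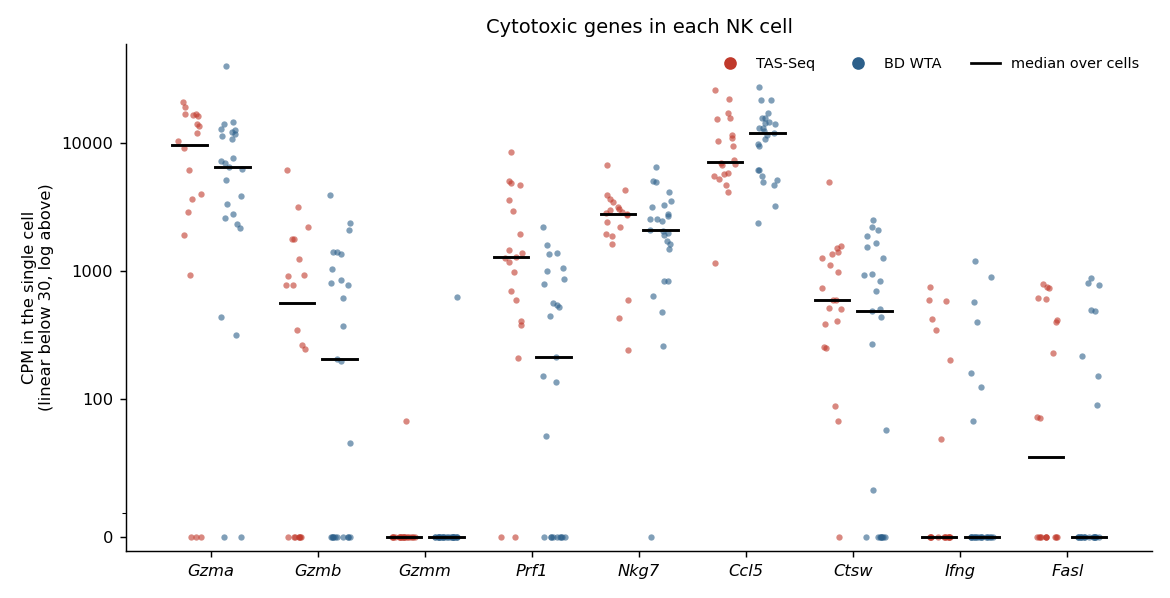
CPM of each gene in each of 20 TAS-Seq (red) and 25 BD WTA (blue) NK cells, on an axis that is linear below 30 and logarithmic above, with black lines at the medians. Ccl5 was at least 1161 CPM in every cell, Gzma, Prf1, Gzmb and Ctsw were at 0 in some cells and above 1000 CPM in others, and Gzmm was found in 1 cell of each library.

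Single NK cells combined the genes in number. At 20000 reads per cell, which 20 and 22 NK cells reached, every NK cell of both libraries had at least 5 reads of at least 3 of the 9 genes, with medians of 6 and 5 genes and a highest count of 8 and 7. The summed level of a single NK cell ran from 6774 to 49423 CPM with a median of 27521 CPM in TAS-Seq, and from 4068 to 53905 CPM with a median of 22933 CPM in BD WTA. Of CD8 T cells, 18 of 122 (14.8%) and 7 of 110 (6.36%) had at least 5 reads of 3 or more genes. The median CD8 T cell had 1 gene at that level in both libraries.

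**Figure D3:**
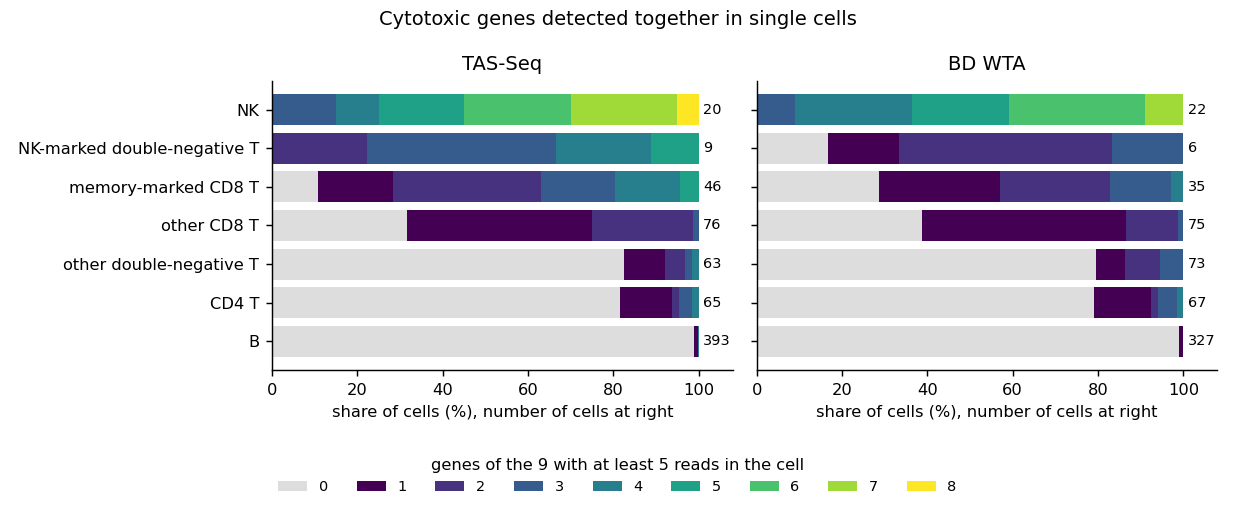
Share of cells (%) by the number of the 9 genes with at least 5 reads, after thinning each cell to 20000 reads, for TAS-Seq (left) and BD WTA (right); the number of cells stands at the right of each bar. NK cells had 3 to 8 and 3 to 7 genes, and nearly all B cells had none.

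To see which CD8 T cells carried the genes, they were divided by the summed level of Il2rb, Cxcr3, Eomes and Tbx21, markers of memory and effector cells, at 100 CPM. This gave 46 memory-marked and 78 other cells in TAS-Seq and 36 and 78 in BD WTA, with 2 memory-marked and 4 other cells of TAS-Seq and 3 and 3 of BD WTA within a factor of 2 of the limit. Memory-marked cells were deeper, with medians of 81621 against 52634 reads and 61714 against 41838.5 reads. Of the memory-marked cells, 11 in TAS-Seq and 5 in BD WTA also had at least 100 CPM of NK markers. Of the other CD8 T cells, 0 and 1 did. The part of these NK-marked cells in the levels below was not tested. Of the 6 and 4 genes of the set that passed the filter, 3 in TAS-Seq (Gzmm, Ccl5 and Ifng) and 2 in BD WTA (Prf1 and Ccl5) were at least 2-fold higher in memory-marked cells, where 11.9% and 19.7% of all genes tested were. Ifng had 45.5 CPM (39.1 to 52.6) from 5 of 46 memory-marked cells and 11.4 CPM (8.42 to 15.1) from 2 of 78 other cells in TAS-Seq, and in BD WTA 0 reads against 13 reads of 1 cell.

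Ccl5 was carried by few cells outside the memory-marked group. It had 1461 CPM (1424 to 1499) in memory-marked and 56.4 CPM (49.4 to 64.1) in other TAS-Seq CD8 T cells, and 1562 CPM (1510 to 1616) against 3.27 CPM (1.63 to 5.85) in BD WTA. At 20000 reads, at least 5 reads were found in 25 of 46 (54.3%, 39.0% to 69.1%) memory-marked and 2 of 76 (2.63%, 0.320% to 9.18%) other cells in TAS-Seq. In BD WTA they were found in 12 of 35 (34.3%, 19.1% to 52.2%) and 0 of 75 cells, which allows up to 4.0%. The intervals of the shares did not overlap in either library.

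Nkg7 and Ctsw, by contrast, were carried by both kinds of CD8 T cells. Nkg7 had 627.7 and 486.0 CPM in memory-marked and other TAS-Seq cells, a ratio of 1.29 (1.19 to 1.40), and 759.9 and 438.1 CPM in BD WTA, a ratio of 1.73 (1.57 to 1.92). Ctsw had ratios of 1.69 (1.51 to 1.90) and 1.46 (1.23 to 1.72). At 20000 reads, 53.9% and 49.3% of the other CD8 T cells had at least 5 reads of Nkg7 and 30.3% and 22.7% of Ctsw. The median sum of 5 markers of naive T cells, such as Ccr7 and Lef1, was 1936 and 2031 CPM in the other cells and 1461 and 2020 CPM in the memory-marked cells, so that it hardly separated the groups in BD WTA.

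Among the granzymes, TAS-Seq Gzmm lay almost wholly in memory-marked CD8 T cells, with 89.0 CPM (79.9 to 98.7) from 11 of 46 cells against 3.81 CPM (2.18 to 6.18) from 2 of 78 cells. Gzma had 10.1 CPM (7.18 to 13.7) in memory-marked TAS-Seq cells, where 1 cell held 72.5% of the reads, and 1.43 CPM in the others. Gzmb had 5 and 3 reads. Neither Gzma, Gzmb nor Gzmm had a read in the memory-marked CD8 T cells of BD WTA, which allows up to 1.39 CPM each. Prf1 had 61.8 and 41.9 CPM in TAS-Seq, a ratio of 1.48 (1.12 to 1.95), and 55.9 and 8.33 CPM in BD WTA, a ratio of 6.71 (3.85 to 12.1). The TAS-Seq values came from 16 of 46 and 14 of 78 cells. Those of BD WTA rest on 4 of 36 and 3 of 78 cells, and 1 memory-marked cell held 43.8% of the reads of its group. Among CD8 T cells, Fasl was read in 3 memory-marked cells of TAS-Seq and 1 of BD WTA, and in none of the 78 other cells of each library.

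**Figure D4:**
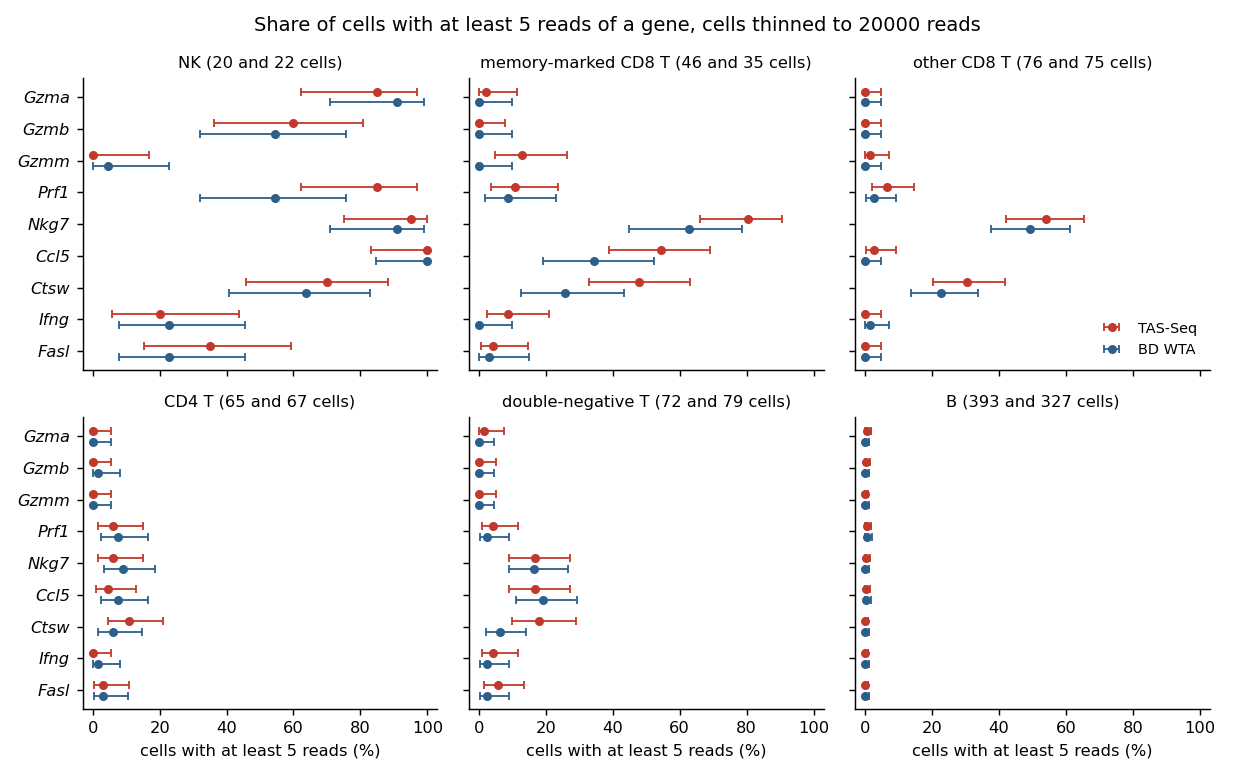
Share of cells (%) with at least 5 reads of each gene, after thinning to 20000 reads, in 6 groups of cells, with 95% exact binomial intervals and the numbers of TAS-Seq (red) and BD WTA (blue) cells in each title. Ccl5 was found in 54.3% and 34.3% of memory-marked CD8 T cells and in 2.63% and 0% of other CD8 T cells, while Nkg7 was found in 53.9% and 49.3% of the latter.

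CD8 T cells as a whole were compared with CD4 T cells, whose coreceptor the injected antibody binds. Of the 7 and 6 genes of the set that passed the filter, 5 in TAS-Seq and 2 in BD WTA were at least 2-fold higher in CD8 T cells, where 8.95% of 8619 and 12.3% of 8307 genes were. Nkg7 had ratios of 7.31 (6.29 to 8.52) and 9.30 (7.79 to 11.2) and Ctsw of 3.29 (2.83 to 3.85) and 4.96 (3.94 to 6.29), and these 2 genes passed in both. Ccl5 had a ratio of 7.67 (6.72 to 8.78) in TAS-Seq and of 1.99 (1.81 to 2.20) in BD WTA. Ifng passed in TAS-Seq at 28.0 against 3.46 CPM but not in BD WTA, at 2.35 against 4.74 CPM. These Ifng values rest on 7 CD8 against 1 CD4 T cells in TAS-Seq and 1 against 3 in BD WTA. Gzmm passed with 370 reads against 2 (interval of the ratio 19.5 to 716.2), and Gzma, below the filter, had a ratio of 2.16 whose interval, 0.835 to 6.31, includes 1. The median log2 ratio over the 9 genes in TAS-Seq was 1.72, against -0.04 over all genes tested, and in BD WTA 3 genes had 0 reads in CD8 T cells, so no median is given.

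The reads of the set in CD4 T cells came mostly from memory-marked cells, although more of the cells with reads were not memory-marked. At least 5 reads of the set were found in 6 of 12 (50%) memory-marked and 9 of 54 (16.7%) other CD4 T cells of TAS-Seq. In BD WTA they were found in 7 of 12 (58.3%) and 9 of 61 (14.8%). The 12 memory-marked CD4 T cells of each library had 1176 CPM (1096 to 1259) and 2469 CPM (2348 to 2595) of the summed genes, and the other CD4 T cells had 102.8 CPM and 71.0 CPM. Of the reads in memory-marked cells, 1 cell held 37.8% in TAS-Seq and 31% in BD WTA. Of these 12 memory-marked cells, 4 in TAS-Seq and 1 in BD WTA also had at least 100 CPM of NK markers. In BD WTA all 975 Ccl5 reads of CD4 T cells came from 5 memory-marked cells, at 1548 CPM (1453 to 1649). Nkg7 had 372.1 and 260.4 CPM in memory-marked and 2.16 and 11 CPM in other CD4 T cells. Prf1 had 59.4 against 22.0 CPM in TAS-Seq and ran the other way in BD WTA, with 3 reads (4.76 CPM) against 35.5 CPM.

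Double-negative T cells were divided by the NK markers at 100 CPM, which set apart 9 TAS-Seq and 6 BD WTA cells with median NK-marker sums of 1368 and 885.5 CPM. The split also followed the memory markers, with median sums of 1263 and 1223 CPM against 0 and 0 CPM in the other double-negative T cells. Median sums of the naive markers were 22.6 and 347.0 CPM against 1675 and 1559 CPM. The 2 kinds of marker cannot be told apart here. The NK-marked cells carried 4277 CPM (4094 to 4466) and 2087 CPM (1939 to 2243) of the summed set, against 428.3 CPM and 570.4 CPM in the other double-negative T cells. The 5 double-negative T cells of each library with at least 100 CPM of gamma delta T-cell markers also carried the set. Of these, 1 in each library was also NK-marked. They had 4194.5 CPM (3948 to 4453) and 1135 CPM (1004 to 1278), with Ccl5 at 3181 and 696.7 CPM. In this group 1 cell held 44.9% and 66.9% of the reads of the set, and 1 held 43.8% and 76.6% of the Ccl5 reads. The highest TAS-Seq Ccl5 level of a single cell was 7156 CPM in both the gamma delta-marked and the NK-marked cells. Of the 7 and 4 genes of the set that passed the filter, 6 and 3 were at least 2-fold higher in the NK-marked cells, where 28.2% and 25% of all genes tested were. Prf1 was not among them, at 18.8 CPM against 30.5 CPM in TAS-Seq and 0 reads against 19.9 CPM in BD WTA. Ccl5 had ratios of 8.83 (7.75 to 10.1) and 4.62 (3.96 to 5.38), Ctsw of 8.73 (6.69 to 11.4) and 10.1 (7.0 to 14.6), and Nkg7 of 12.1 (9.76 to 15.1) and 1.62 (1.21 to 2.15). Gzmb and Gzmm had 0 reads in these cells in both libraries. Gzma had 91.7 CPM in TAS-Seq, 90.9% of it from 1 cell, and 0 reads in BD WTA. Fasl reached 273.0 CPM (228.3 to 324.0) from 4 of 9 TAS-Seq cells and 45.1 CPM (25.8 to 73.2) from 1 of 6 BD WTA cells. Ifng had 170.9 CPM (135.9 to 212.1) from 4 of 9 cells in TAS-Seq and 0 reads in BD WTA. In TAS-Seq 1 of these 9 cells held 46.3% of the Ifng reads and 1 held 33.7% of the Ccl5 reads.

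Most genes of the set had like levels in the NK cells of both methods. For the summed set TAS-Seq stood above BD WTA by a log2 ratio of 0.11 (0.07 to 0.15), and the median over the 9 genes was 0.21, against 0.07 over 8592 genes. Prf1 was the 1 gene at least 2-fold higher in TAS-Seq, by 3.37-fold (2.95 to 3.85), where 29.6% of all genes tested passed, and Gzmm the 1 gene at least 2-fold higher in BD WTA, by 3.55-fold (1.17 to 12.1) on 25 and 8 reads, where 26.6% passed. All 9 genes passed the filter. The shares of NK cells with at least 5 Prf1 reads at 20000 reads were 85.0% (62.1% to 96.8%) and 54.5% (32.2% to 75.6%), and these intervals overlap. In CD8 T cells 2 of the 6 genes that passed the filter were at least 2-fold higher in TAS-Seq, where 17% of 8460 genes were. They were Gzmm and Ifng, the latter at 28.0 against 2.35 CPM, from 7 of 124 and 1 of 114 cells. Gzma, below the filter, had 46 reads against 0.

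**Figure D5:**
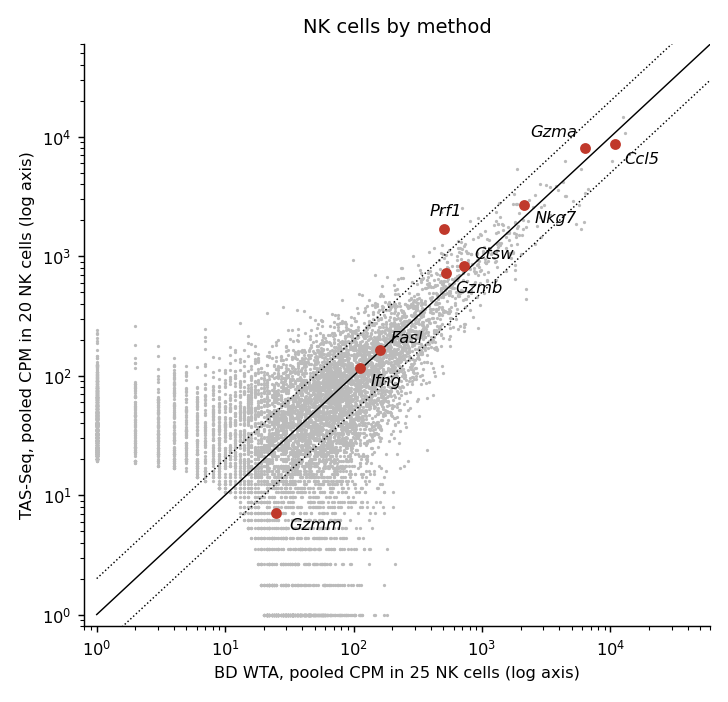
Pooled CPM (log axes) in NK cells for BD WTA (x) and TAS-Seq (y), with the 9 genes in red and the other genes with a mean of at least 10 CPM in grey; values below 1 CPM are drawn at 1, the solid line marks equal levels and the dotted lines a factor of 2. 7 of the 9 genes lie between the dotted lines, Prf1 lies above them and Gzmm below.

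The level in B cells gives the background of the set. At 20000 reads, 126 of 393 TAS-Seq B cells (32.1%, 27.5% to 36.9%) and 9 of 327 BD WTA B cells (2.75%, 1.27% to 5.16%) had at least 1 read of any of the 9 genes. With at least 5 reads the shares were 1.02% (0.278% to 2.59%) and 0.917% (0.190% to 2.66%), and their intervals overlapped. Ccl5 was the gene read in the largest number of TAS-Seq B cells, 124 of 406. One TAS-Seq cell of the B class held 411 of the 865 reads, with 11312 CPM of Gzma, 1019 CPM of Nkg7 and 951.2 CPM of Prf1 beside 1936 CPM of B-cell markers and 441.6 CPM of NK markers, and was not called a doublet by Scrublet. Without it the summed level in TAS-Seq B cells was 22.6 CPM in place of 43.1 CPM, and Gzma had 3.64 CPM in place of 20.2 CPM. Gzmb fell from 1.24 CPM to 0.249 CPM (5 reads) in B cells without it. Beside these levels, TAS-Seq CD8 T cells had 5.62 CPM of Gzma and 0.978 CPM of Gzmb. The part of free RNA in these levels was not tested. The remaining cells had mostly markers of neutrophils, monocytes or macrophages and dendritic cells. In BD WTA 7 of the 36 had at least 1000 CPM of plasma-cell markers, against 0 of 26 in TAS-Seq. The remaining cells had 159.6 CPM and 69.1 CPM of the summed set, of which Ccl5 made up 144.0 and 37.2 CPM.

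Of 39 other genes of the cytotoxic pathway, 34 were listed and 26 and 22 passed the filter. Of these, 16 in TAS-Seq and 11 in BD WTA were at least 4-fold higher in NK cells than in B cells. Of all genes tested 9.00% and 10.3% were, but for genes low in B cells the filter again implied the fold. In both libraries 11 pathway genes passed filter and fold. Among these were the chemokines Ccl3, with 1213 and 721.6 CPM in NK cells, Ccl4, with 2336 and 476.7 CPM, and Xcl1, with 2560 and 692.6 CPM. The granzyme inhibitors Serpinb9 (542.8 and 526.7 CPM) and Serpinb6b (797.9 and 236.9 CPM) were among them, as were the lysosomal protease Ctsd (926.3 and 98.9 CPM), the cystatin Cst7 (387.1 and 269.8 CPM) and the granule fusion protein Stx11 (102.0 and 72 CPM). The transcription factors Eomes (306.1 and 558.7 CPM), Tbx21 (212.0 and 284.8 CPM) and Id2 (1858 and 1339 CPM) completed the group. Below the filter in at least 1 library, the receptor Klrg1 had 213.8 and 69 CPM in NK cells, the inhibitor Serpinb9b 29 and 12 CPM, and the cytokine Csf2 1 and 5 reads.

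Other genes of the pathway did not reach that fold of NK over B cells in both libraries. Srgn, the proteoglycan that packs granules, had 899.9 and 1046 CPM in NK cells and 791.9 and 711.1 CPM in B cells. Ctsc, which activates granzymes, had 128.4 and 293.8 CPM against 143.2 and 204.6 CPM. The release factors Unc13d and Stxbp2 had ratios of NK over B cells between 1.13 and 1.71. Ltb, a cytokine of the tumour necrosis factor family, was lower in NK cells, at 73 and 82 CPM against 243.7 and 287.1 CPM. Tnf, Lta and Fas had 0 reads in NK cells of both libraries, which allows up to 2.64 and 3.0 CPM. Gzmk, a further granzyme, passed the fold in TAS-Seq alone, with 27.3 CPM from 1 NK cell and 0 reads in B cells. In BD WTA it had 0 reads in NK and in B cells.

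The genes whose levels ran most like the set were sought over 10 points, the 5 main classes of each library, among 8093 genes, with Pearson's r of log2(pooled CPM + 1). The points share 2 libraries and the classes differ most between NK and B cells, so the values are a description. The highest r with the mean of the set belonged to AW112010 (0.974), Cdca7l (0.965), Xcl1 (0.959), Serpinb6b (0.958) and Ahnak (0.953). AW112010 had 3979 and 3159 CPM in NK cells, between 217.7 and 435.1 CPM in the T-cell classes, and 72.3 and 46.1 CPM in B cells. The genes most like Gzma were Gas7 (0.980), Cd244a (0.967) and the NK marker Klra8 (0.966), and those most like Ccl5 were Cd7 (0.991), Cst7 (0.970) and Cdca7l (0.965). Cd7 had 1050 and 2000 CPM in NK cells and 187.0 and 179.7 CPM in CD8 T cells.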

How the data were processed

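Spleen cells were profiled with the BD Rhapsody system in 2 libraries, 1 by TAS-Seq and 1 by BD WTA, named here by the method in the sample title. The tables deposited by the authors hold raw counts of reads per gene and cell barcode, without unique molecular identifiers and without normalization. According to the study's methods, the authors trimmed reads with cutadapt, aligned them to the sense strand of Ensembl cDNA and non-coding RNA of GRCm38 with bowtie2 2.4.2, and kept barcodes over the inflection point with DropletUtils. The submitters' processing notes name cutadapt 2.10, and the background subtraction described in the methods is not stated for these tables. For spleen the methods describe a larger cell load and name no freezing, so the sample preparation given here follows the labels. Mapping to transcripts can divide reads between genes that share sequence, and without molecular identifiers a value also carries how far each molecule was amplified.

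Barcodes with at least 500 genes and at most 25% mitochondrial reads were kept, which removed 4 and 8. Cells were NK with an NK-marker sum of at least 1000 CPM, above the T-marker sum, and 3 detected NK markers. T cells needed 1000 CPM of T markers, B cells 1000 CPM of B markers with less of the others, and coreceptors and subsets 100 CPM. These limits were set after marker levels were seen. Doublets called by Scrublet (scanpy 1.11.5, expected rate 0.05) were kept: 1 of the mixed TAS-Seq cells, and 1 NK, 2 B and 3 mixed BD WTA cells. For shares, cells were thinned to 20000 reads, and shallower cells were left out. Intervals are exact Poisson (levels) and Clopper-Pearson (shares) at 95%, a ratio's interval sets the bounds of 1 level against those of the other, and a count of 0 is given the bound of 3 counts in the text and the upper end of the exact interval in the figures. TMM factors came from edgeR 4.0.16. With 20 to 406 cells per class, counts limit the low levels most. 

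The 9 genes, the pathway list and the markers were chosen with earlier results of these data known. Named genes are the 9, the pathway genes at least 4-fold higher in NK than in B cells in both libraries (filter or not), and the genes most like the set. Pathway genes named for not reaching that fold in both libraries were picked after their values were seen. Gene positions came from the GENCODE annotation of GRCm38. With 1 library per method, no p-value was computed.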

Additional observations from a re-analysis of the deposited data

Results flagged for a closer look

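Ifng differed in direction between the libraries in its ratio of memory-marked to other CD8 T cells. In TAS-Seq it had 45.5 CPM in memory-marked and 11.4 CPM in other cells, and in BD WTA 0 CPM and 3.87 CPM. The TAS-Seq reads came from 5 and 2 cells and the BD WTA reads from 1 cell, and the difference was not tested.

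Ifng also went in opposite directions between NK-marked and other double-negative T cells. In TAS-Seq it had 170.9 CPM in NK-marked and 0.635 CPM in other cells, from 4 and 2 cells, and in BD WTA 0 CPM and 19.9 CPM, from 0 and 5 cells. The 6 NK-marked cells of BD WTA allow up to 8.45 CPM at 3 reads, and the difference was not tested.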

How the results depend on the processing

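Of 74 alternatives, 51 left a value within its counting interval or its count within a factor of 1.5, and 23 moved it. A reversal could be recorded only for the log2 ratio of the methods in NK cells, which kept its sign in each alternative. The number of the 9 genes at least 4-fold higher in NK than in B cells stayed at 8 or 9, and the number at least 2-fold higher in CD8 than in CD4 T cells ranged from 5 to 7 in TAS-Seq and stayed at 2 in BD WTA, both counted over all 9 genes without the filter. The mean of single cells gave summed levels in TAS-Seq of 26469.6 CPM in NK, 1625.6 CPM in CD8 T and 56.3 CPM in B cells, and in BD WTA of 24417.3 CPM in NK and 1163.1 CPM in CD8 T cells. Thinning to 20000 reads gave 26325.0, 1547.5 and 58.5 CPM in TAS-Seq, and 23645.5 and 1130.5 CPM in BD WTA. A gate at double the marker level gave 22.7 CPM in TAS-Seq B cells, 20645.5 CPM in BD WTA NK cells and 1377.2 CPM in BD WTA CD8 T cells, and a gate at 0.5 of that level gave 47.9 CPM in TAS-Seq B cells. Without the B cell with most reads of the set, an alternative chosen after seeing the data, B cells had 22.6 and 4.12 CPM. The share of TAS-Seq B cells with a read was 9.41% at 2 reads, 1.02% at 5 reads, 51.5% without thinning and 15.5% at 10000 reads, and that of BD WTA 0.917% at 5 reads. The log2 ratio of the methods in NK cells was 0.15 after thinning and 0.03 with TMM factors. No paired analysis was possible because a single library stands for each method. Levels under 3 reads and classes of fewer than 10 cells are limited by counting.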
